A study of Mus musculus with 8 samples.

Results

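The nuclear-encoded subunit genes of respiratory complexes II to V were examined in bone-derived mesenchymal stem cells cultured at low or high oxygen. These cells (MSCs) are stromal cells that can form bone, fat and cartilage. Members were the genes whose symbols begin with Uqcr, Cox5 to Cox8 or Atp5, together with Sdha to Sdhd, leaving out pseudogenes. The rule found 45 of the 53465 genes in the count table, with 4 in complex II, 8 in complex III, 16 in complex IV and 17 in complex V, and it left out 8 pseudogenes. Cox4i1 and Cox4i2 of complex IV and the subunits encoded by mitochondrial DNA lie outside the rule. A few members are not core subunits, among them Cox7a2l, known as a factor in supercomplexes of complexes III and IV, and Atp5s, a coupling factor of ATP synthase. What Cox7a2l does in these cells was not tested.

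Bulk RNA-seq was performed on 4 samples cultured in hypoxia (2% O2, 5% CO2) and 4 cultured in normoxia (21% O2, 5% CO2), numbered 1 to 4 in each group. All came from wild-type male C57BL/6N mice aged 3 to 5 months, with no transgene and no agent other than oxygen. Per the labels, MSCs were purified by flow cytometry on day 12 of culture, whereas the methods of the study divide a population already sorted, all of it grown in hypoxia first, between the 2 oxygen levels for a week. How many mice each sample holds is not given in the sources used here. The series asks what lasting exposure to normoxia does to chromatin, metabolism and stem cell fate, and the comparison below is that of 21% against 2% oxygen.

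Total counts lay between 12898291 and 13433824 in 7 samples, whereas hypoxia replicate 1 was sequenced to 25132141. The 9 MSC markers examined were all above the filter on low counts, at a summed 3273 to 4050 CPM (counts scaled to library size) in hypoxia and 3891 to 4264 CPM in normoxia. Of these, 1 was called lower in normoxia (Eng) and 3 higher (Itgb1, Nt5e and Cd44), whereas 4 were lower and 5 higher once replicate numbers entered the model as a block. Erythroid markers were absent, with 5 of 6 genes at 0 counts in every sample. Of 8 blood cell markers 6 passed the filter, at a summed 445 to 893 CPM in hypoxia and 594 to 1117 CPM in normoxia, and among them Lyz2, a lysozyme of myeloid cells, was called higher in normoxia (0.56 on the log2 scale, limma-trend adjusted p = 0.0220). In the blocked fit Csf1r, Itgam and Cd68 were called lower (-0.59, -0.46 and -0.28). Endothelial markers summed to under 3 CPM in every sample. The part of blood cells, or of a shift in MSC markers, in the results below was not tested.

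Complex II (succinate dehydrogenase) oxidises succinate and passes the electrons to ubiquinone, complex III (the cytochrome bc1 complex) passes them to cytochrome c, and complex IV (cytochrome c oxidase) passes them to oxygen. Complexes III and IV pump protons across the inner mitochondrial membrane, and complex V (ATP synthase) uses the returning protons to make ATP. Several subunits exist as tissue-specific isoforms from separate genes, and cells are known to exchange some isoforms of complex IV when oxygen falls.

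Of the 45 genes, 42 passed the filter, and 16 of them were lower in normoxia than in hypoxia while none was higher (limma-trend, adjusted p under 0.05 over 14369 genes). Over all tested genes 16.5% were called lower and 18.0% higher. All values are log2 CPM, and every change is normoxia minus hypoxia on that scale. The median change over the 42 genes was -0.21, against 0.0049 over all tested genes, and 34 of the 42 changes were negative. The calls were unevenly spread, with 2 of 4 genes in complex II, 1 of 8 in complex III, 4 of 13 in complex IV and 9 of 17 in complex V. No test compared the complexes with one another. The 4 normoxia values lay entirely below the 4 hypoxia values for 12 of the 42 genes and entirely above them for none, whereas over all genes these shares were 15.5% and 17.1%. In bulk RNA, fewer cells of one type and less RNA per cell cannot be told apart.

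**Figure D1:**
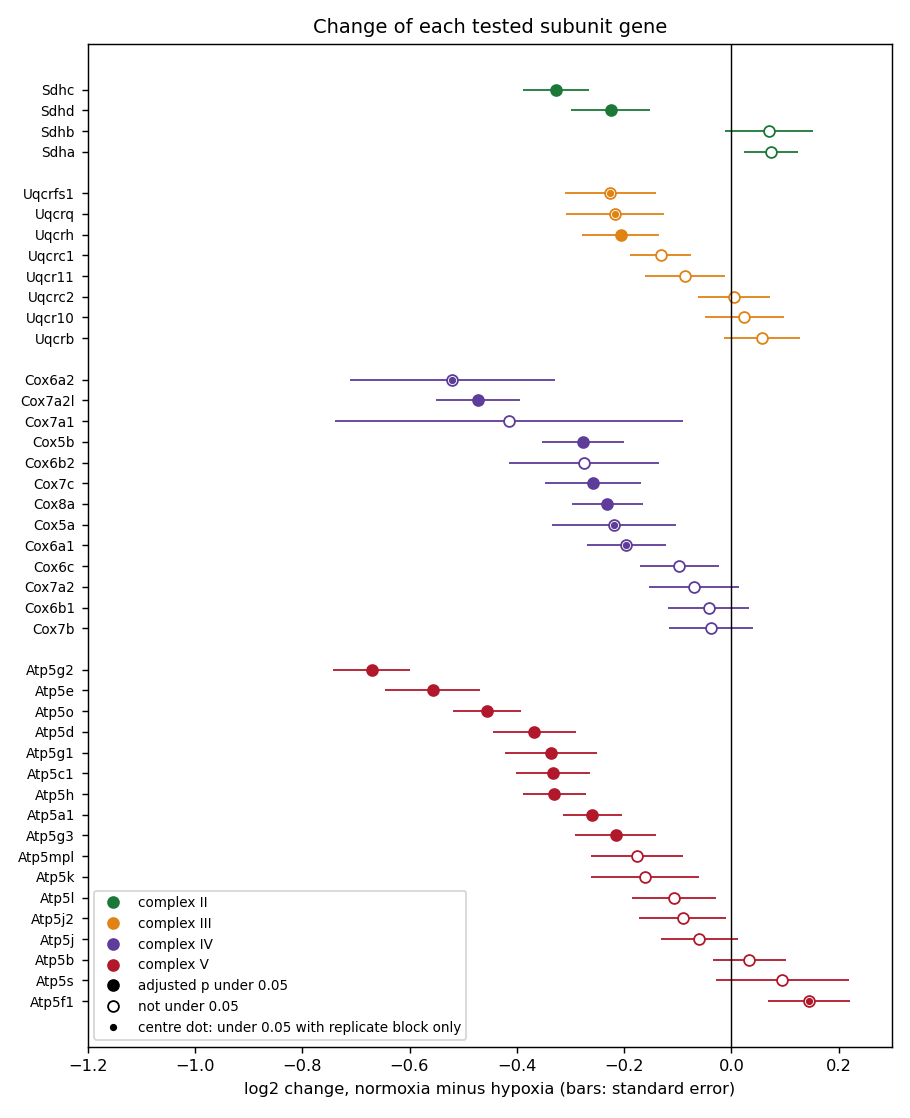
Log2 change (normoxia minus hypoxia, horizontal axis) of each of the 42 tested genes, grouped by complex, with bars of 1 standard error and 4 samples per group. Filled points mark the 16 genes with an adjusted p under 0.05 without the replicate block, and a centre dot marks 6 further genes that passed only with it. All filled points lie to the left of 0, from Atp5g2 at -0.67 to Uqcrh at -0.21.

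Over all genes same-numbered samples deviated together, with correlations of 0.17 to 0.47, so the fit was repeated with the replicate number as a block. Over the 42 genes themselves the correlations were 0.42, 0.28, -0.28 and -0.18 in pairs 1 to 4. Values for samples with unlike numbers were not kept and the sample titles name no pairs, so equal numbers are not shown to mark pairs. All 16 genes remained lower, and 5 others joined them (Uqcrfs1, Uqcrq, Cox5a, Cox6a1 and Cox6a2), which made 21 lower against 22.7% of all genes. Atp5f1 was then the only gene of the 42 called higher, against 23.3% of all genes.

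Promoter sequences are shown for 4 genes. These are the 2 with the largest decreases, Cox6a1, taken because its promoter matches 2 motifs, and Sdha, taken as a gene not called. Cox6a1 was not called without the block but was called lower with it. RefSeq (GRCm38.p6) promoters of 300 bases, running from 250 bases before to 50 after the gene start, were at hand for 34 of the 45 genes, giving 37 promoters. Not matched were Sdhc, Uqcrb, Uqcrc2, Uqcrq, Cox6a2, Cox6c, Cox8c, Atp5a1, Atp5f1, Atp5mpl and Atp5s. Printed are the 250 bases before the start, 5′ to 3′ on the strand of the gene, with motif matches in capitals and positions counted back from -1 at the base before the start. Some starts lie within the gene as GENCODE bounds it, as that of Atp5g2 does. Atp5g2 (chr15:102671048-102671297, minus strand) holds an NRF1 match beginning at position -42 and an ACGTG match on the opposite strand at -240. Atp5e (chr2:174464102-174464351, minus strand) holds an ETS match on the opposite strand at -102. Cox6a1 (chr5:115348959-115349208, minus strand) holds an NRF1 match at -162 and an ETS match on the opposite strand at -16, and Sdha (chr13:74350241-74350490, minus strand) holds an ACGTG match at -125.
Atp5g2: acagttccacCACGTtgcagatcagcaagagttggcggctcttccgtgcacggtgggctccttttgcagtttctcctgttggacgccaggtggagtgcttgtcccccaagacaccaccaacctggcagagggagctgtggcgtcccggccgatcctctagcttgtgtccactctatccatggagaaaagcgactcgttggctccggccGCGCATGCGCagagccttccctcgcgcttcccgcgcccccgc
Atp5e: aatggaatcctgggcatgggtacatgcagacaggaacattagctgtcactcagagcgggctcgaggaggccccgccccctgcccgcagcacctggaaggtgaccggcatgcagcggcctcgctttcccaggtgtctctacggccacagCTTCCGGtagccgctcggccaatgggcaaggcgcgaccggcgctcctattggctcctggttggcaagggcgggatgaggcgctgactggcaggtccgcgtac
Cox6a1: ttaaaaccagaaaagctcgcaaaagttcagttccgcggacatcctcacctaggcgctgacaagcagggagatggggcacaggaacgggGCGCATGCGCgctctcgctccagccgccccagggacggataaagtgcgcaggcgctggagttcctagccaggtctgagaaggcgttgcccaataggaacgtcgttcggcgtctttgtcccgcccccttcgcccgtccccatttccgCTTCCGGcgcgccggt
Sdha: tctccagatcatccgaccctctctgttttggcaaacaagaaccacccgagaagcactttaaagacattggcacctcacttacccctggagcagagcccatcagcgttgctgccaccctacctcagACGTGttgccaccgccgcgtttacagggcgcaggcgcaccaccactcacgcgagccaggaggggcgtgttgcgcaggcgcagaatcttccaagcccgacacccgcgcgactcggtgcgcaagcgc

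The letters searched, on both strands, were GCGCA followed directly by TGCGC for NRF1 and CCGGAAG for ETS factors such as GABP, both known activators of respiratory genes, AANATGGC for YY1 and ACGTG for the core of the hypoxia response element. The NRF1 letters were found in 4 of 37 member promoters (10.8%) against 0.971% of all 32851 promoters, and the ETS letters in 12 (32.4%) against 8.86%. The YY1 letters were found in 4 (10.8%) against 6.05%, and ACGTG in 10 (27.0%) against 19.6%. Of 14 genes called lower that had a promoter, 5 held the ETS letters and 1 the NRF1 letters, and of 18 genes not called these numbers were 7 and 3. ACGTG stood in 4 of those 14 and in 5 of those 18. These matches are descriptions of the sequence only.

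In complex II, in the fit without block or correction, the membrane anchors were called lower and the catalytic subunits were not called. Sdhc (ENSMUSG00000058076, chr1:171127165-171150603), which helps hold the enzyme in the membrane, had 6.87, 6.85, 6.95 and 7.07 log2 CPM in hypoxia replicates 1 to 4. In normoxia replicates 1 to 4 it had 6.57, 6.64, 6.67 and 6.55, all of them below the lowest hypoxia value. The change was -0.33 ± 0.062 (SE), so the level fell by 20.3% (adjusted p = 0.00188 by limma-trend). Sdhd, the second anchor, had 6.44, 6.26, 6.46 and 6.51 in hypoxia and 6.35, 6.12, 6.17 and 6.13 in normoxia. It was lower in all 4 pairs, but normoxia replicate 1 lay above hypoxia replicate 2, so the groups overlapped. The change was -0.23 ± 0.073 (SE) (limma-trend adjusted p = 0.0318). This call was lost with library totals alone and without a filter (limma-trend adjusted p = 0.174 and 0.0525), and in some fits that left out 1 sample.

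Sdha, the flavoprotein that oxidises succinate, had 7.77, 7.84, 7.75 and 7.77 in hypoxia and 7.89, 7.88, 7.84 and 7.81 in normoxia, slightly higher in normoxia in all 4 pairs. Its change of 0.074 ± 0.050 (SE) did not pass the test (limma-trend adjusted p = 0.285). Sdhb, which carries the iron-sulphur clusters, had 5.82, 5.44, 5.76 and 5.74 in hypoxia and 5.83, 5.72, 5.71 and 5.79 in normoxia. Hypoxia replicate 2 was the lowest of its 8 values and the other 7 lay close together, with a change of 0.070 ± 0.082 (SE) (adjusted p = 0.548 by limma-trend). Under the GC and length correction described below Sdhb was called higher, at 0.25 (limma-trend adjusted p = 0.0170, becoming 5.10e-04 with the block). Whether the anchors differ from the catalytic subunits was not tested. Per kb of transcript, the mean levels were 77.7 CPM for Sdha, 64.5 for Sdhd, 46.4 for Sdhb and 34.7 for Sdhc.

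**Figure D2:**
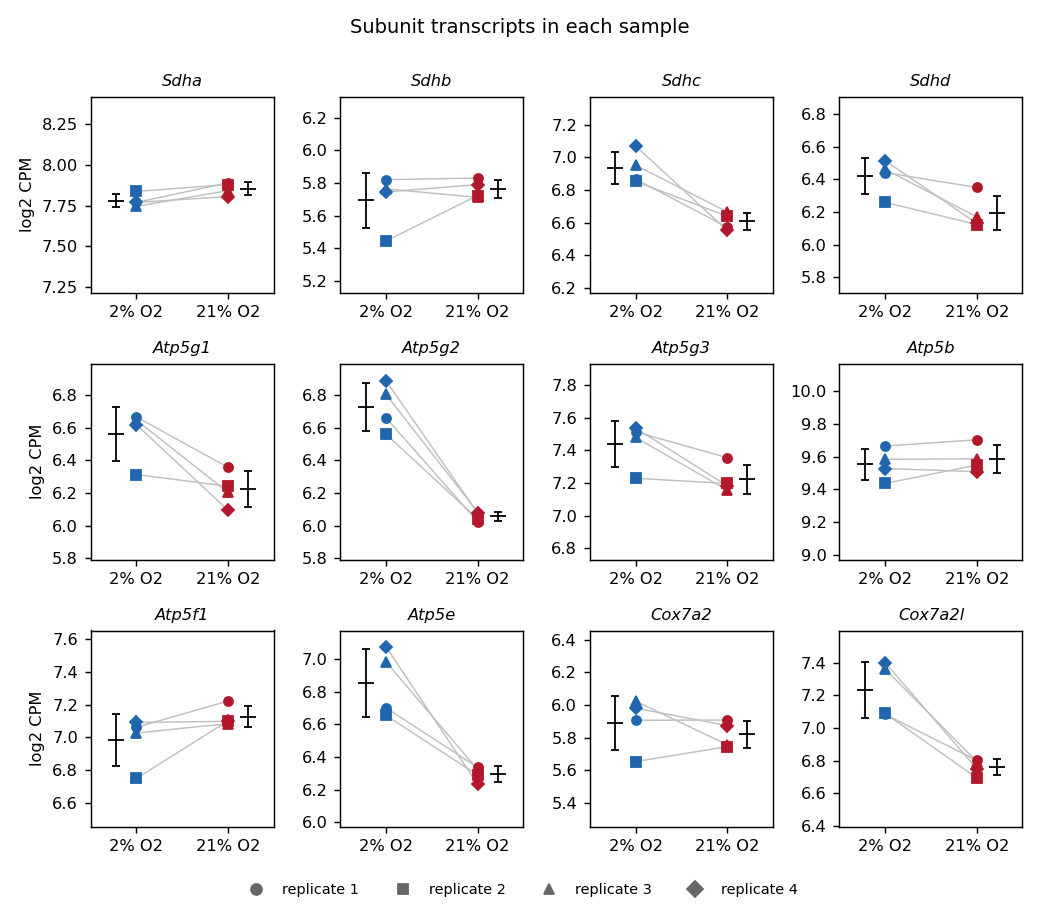
Log2 CPM of 12 genes in each of the 8 samples at 2% O2 (left in each panel) and 21% O2 (right). Symbols mark replicate numbers, grey lines join same-numbered samples, black bars give mean and SD of 4 samples, and every panel spans 1.2 log2 units. Sdhc, Atp5g2, Atp5e and Cox7a2l separate completely, whereas Sdha, Sdhb, Atp5b and Atp5f1 overlap between the groups.

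In complex III most genes were not called. Uqcrh, the hinge protein that helps cytochrome c to dock, was the only one of its 8 genes called lower. It had 6.55, 6.63, 6.74 and 6.84 in hypoxia and 6.60, 6.47, 6.45 and 6.41 in normoxia. Normoxia replicate 1 lay above hypoxia replicate 1 and the groups overlapped. Its change was -0.21 ± 0.072 (SE), and its adjusted p of 0.0429 (limma-trend) was the nearest to the threshold among the genes called. Uqcrc2, a core protein, had a change of 0.0049 ± 0.067 (SE), and Uqcr10, a small subunit, one of 0.024 ± 0.073 (SE) (limma-trend adjusted p = 0.964 and 0.831). The other core protein, Uqcrc1, did not overlap between groups but was not called (-0.13 ± 0.057 (SE), limma-trend adjusted p = 0.0916), and its change turned to 0.066 under the correction for GC content and length described below.

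With the block, Uqcrfs1 and Uqcrq joined Uqcrh, so that complex III held 3 genes called lower. Uqcrfs1, the Rieske iron-sulphur protein, had 5.69, 5.42, 5.78 and 5.79 in hypoxia and 5.53, 5.47, 5.37 and 5.39 in normoxia. It was lower in 3 of 4 pairs, with pair 2 the exception, at a difference of -0.23 ± 0.085 (SE) (limma-trend adjusted p = 0.0576, becoming 0.0134 in the blocked fit). Uqcrq, a small ubiquinone-binding subunit, had 6.91, 6.49, 6.97 and 6.92 in hypoxia and 6.64, 6.59, 6.59 and 6.59 in normoxia. Hypoxia replicate 2 lay below every normoxia sample and the other hypoxia samples above them, and the change was -0.22 ± 0.092 (SE) (limma-trend adjusted p = 0.0863, becoming 0.00804 in the blocked fit). Over 21 alternative fits the adjusted p ran from 0.00535 to 0.242 for Uqcrfs1 and from 0.00106 to 0.306 for Uqcrq. The 2 remaining genes, Uqcr11 and Uqcrb, were not called in either fit, at -0.087 and 0.057. Under the GC and length correction Uqcr11 turned to 0.25 and was called higher (limma-trend adjusted p = 0.00428, becoming 2.66e-04 with the block).

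In complex IV all 13 tested genes had negative changes, from -0.52 to -0.038, and 4 of them were called lower. Under the correction for GC content and length described below 4 changes (Cox6a1, Cox6b1, Cox7a2 and Cox8a) were above 0, and with scaling by library totals alone those of Cox7b, Cox6b1 and Cox7a2 were. Cox7a2l (ENSMUSG00000024248, chr17:83501918-83517330), whose part in supercomplexes was not tested in this strain, had 7.08, 7.09, 7.36 and 7.40 in hypoxia. In normoxia it had 6.80, 6.70, 6.80 and 6.75. Every normoxia value lay below every hypoxia value, and hypoxia replicates 3 and 4 stood highest. It fell by 27.9% (-0.47 ± 0.078 (SE), limma-trend adjusted p = 8.31e-04). Cox5b, a subunit on the matrix side, fell by 0.28 on the log2 scale, from 6.37, 6.19, 6.46 and 6.51 to 6.22, 6.09, 6.09 and 6.02 (limma-trend adjusted p = 0.0148), with normoxia replicate 1 above hypoxia replicate 2. Cox7c, a small membrane subunit, had 7.01, 6.70, 7.02 and 7.20 in hypoxia and 6.78, 6.74, 6.71 and 6.68 in normoxia. Its 4 normoxia values lay within 0.1 of one another, while hypoxia replicate 2 overlapped them, and the change was -0.26 ± 0.089 (SE) (limma-trend adjusted p = 0.0406). Cox8a, the ubiquitous form of subunit VIII, had 7.26, 7.13, 7.34 and 7.43 in hypoxia and 7.12, 7.04, 7.02 and 7.04 in normoxia without overlap, changing by -0.23 ± 0.066 (SE) (limma-trend adjusted p = 0.0175), though its direction turned under the GC and length correction.

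With the block, 7 genes of complex IV were called lower. Cox5a, the partner of Cox5b, had 4.65, 4.49, 4.69 and 4.71 in hypoxia and 4.67, 4.32, 4.55 and 4.12 in normoxia, at a difference of -0.22 ± 0.11 (SE) (limma-trend adjusted p = 0.163, then 0.0496 in the blocked fit, and 0.0479 to 0.407 over the alternative fits). Cox6a1, the ubiquitous form of subunit VIa, had 7.53, 7.31, 7.64 and 7.47 in hypoxia and 7.35, 7.37, 7.23 and 7.22 in normoxia, at a difference of -0.20 ± 0.073 (SE) (limma-trend adjusted p = 0.0554, then 0.00992 in the blocked fit, and 0.00992 to 0.275 over the alternatives). Its direction also depended on that correction. The smallest differences were those of Cox7b (-0.038 ± 0.078 (SE)) and Cox6b1 (-0.042 ± 0.076 (SE)), small subunits at limma-trend adjusted p of 0.744 and 0.707. Cox6c and Cox7a2 were not called either, at -0.097 and -0.070.

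The muscle and testis isoforms of complex IV were scarce. Cox6a2, the heart and muscle form of subunit VIa, had 2.88, 2.50, 3.06 and 2.42 in hypoxia and 2.39, 2.33, 1.73 and 2.33 in normoxia. The groups did not overlap, normoxia replicate 3 was lowest, and the change of -0.52 ± 0.19 (SE) stood just outside the threshold (limma-trend adjusted p = 0.0528, then 0.0141 in the blocked fit, and 0.0141 to 0.202 over the alternatives). Of 8 muscle markers, 3 passed the filter, at a summed 24.6 to 38.3 CPM in hypoxia and 9.23 to 14.7 CPM in normoxia. Acta1, skeletal actin, changed by -1.33 and Des, desmin, by -0.74, and the third tested was Tnnt3. Of these 3, 2 were called lower with and without the block, and 1 under the GC and length correction with the block. Ckm, Myog and Myh4 were at 0 in every sample and Myod1 at 0 in all but 1. The part of muscle RNA in the Cox6a2 values was not tested. Cox7a1, the muscle form of subunit VIIa, had 1 to 9 counts per sample and a change of -0.41 ± 0.32 (SE) (limma-trend adjusted p = 0.356). Cox6b2, the testis form of subunit VIb, had 2.61, 3.14, 2.97 and 3.00 in hypoxia and 2.49, 2.80, 2.61 and 2.71 in normoxia and was lower in all 4 pairs, at -0.27 ± 0.14 (SE) (limma-trend adjusted p = 0.150).

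Of the 3 genes that did not pass the filter, Cox7b2 and Cox8c are testis forms and Cox8b is the muscle form of subunit VIII. Cox7b2 had 2 counts in hypoxia replicate 1 and 0 elsewhere, Cox8b 1 count in normoxia replicate 3 and 0 elsewhere, and Cox8c 0 counts in every sample. A count of 0 allows 3 counts, or 0.119 to 0.233 CPM at these depths.

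Complex V held the 2 largest changes, both decreases. The F1 head is built of alpha and beta subunits around a central stalk of gamma, delta and epsilon, a ring of c subunits turns in the membrane, and a peripheral stalk holds the head still. All 3 genes of the central stalk and all 3 genes for subunit c were called lower, as were Atp5a1 for the alpha subunit and 2 of 4 genes of the peripheral stalk. Neither the beta subunit gene nor any of the 4 genes for small membrane subunits (Atp5k, Atp5l, Atp5j2 and Atp5mpl) was called. This grouping by position in the enzyme was made after the values were seen, and no test compared the groups.

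Atp5g2 (ENSMUSG00000062683, chr15:102662864-102672352), 1 of 3 genes that encode the identical mature subunit c, had 6.66, 6.56, 6.80 and 6.89 in hypoxia and 6.02, 6.04, 6.08 and 6.08 in normoxia. The normoxia values spanned less than 0.1 and lay well below the lowest hypoxia value. It fell by 37.1%, the largest decrease of the 42 by log2 change (-0.67 ± 0.072 (SE), limma-trend adjusted p = 9.85e-05). Atp5e (ENSMUSG00000016252, chr2:174461072-174464105), the epsilon subunit, had 6.70, 6.65, 6.98 and 7.07 in hypoxia and 6.34, 6.29, 6.32 and 6.23 in normoxia. Again no normoxia value reached the hypoxia range, and the gene fell by 32.0% (-0.56 ± 0.089 (SE), limma-trend adjusted p = 6.79e-04). Atp5o, the oligomycin sensitivity protein that ties the peripheral stalk to the head, had 7.05, 6.86, 7.05 and 7.03 in hypoxia and 6.61, 6.45, 6.60 and 6.50 in normoxia, without overlap (-0.46 ± 0.064 (SE), limma-trend adjusted p = 3.35e-04).

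The other genes of complex V called lower are given here to account for every member. Atp5d (delta) changed by -0.37, Atp5c1 (gamma) by -0.33, Atp5h (peripheral stalk subunit d) by -0.33 and Atp5a1 by -0.26, each without overlap between the groups. Atp5g1, the second gene for subunit c, had 6.67, 6.31, 6.65 and 6.62 in hypoxia and 6.36, 6.24, 6.20 and 6.10 in normoxia and changed by -0.34 ± 0.085 (SE) (limma-trend adjusted p = 0.00945). Atp5g3, the remaining one, had 7.51, 7.23, 7.48 and 7.53 in hypoxia and 7.35, 7.20, 7.16 and 7.18 in normoxia and changed by -0.22 ± 0.075 (SE) (limma-trend adjusted p = 0.0422). For both, hypoxia replicate 2 lay below normoxia replicate 1, and both were lower in all 4 pairs.

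Atp5b, the catalytic beta subunit and the most abundant of the tested transcripts per kb, was not called. It had 9.67, 9.44, 9.58 and 9.53 in hypoxia and 9.70, 9.55, 9.59 and 9.51 in normoxia, overlapping throughout, with a change of 0.033 ± 0.068 (SE) (limma-trend adjusted p = 0.741). Atp5f1 (chr3:105942698-105960099), subunit b of the peripheral stalk, had 7.06, 6.75, 7.03 and 7.09 in hypoxia and 7.22, 7.10, 7.08 and 7.10 in normoxia. It was higher in normoxia in all 4 pairs, and hypoxia replicate 2 was lowest. The change of 0.14 ± 0.076 (SE) missed the threshold at first (limma-trend adjusted p = 0.164) and passed it in the blocked fit (0.0419), with adjusted p from 0.0145 to 0.406 over the alternatives. Atp5j, the coupling factor of that stalk, stood at -0.060 ± 0.072 (SE) (limma-trend adjusted p = 0.559). The differences of the 4 small membrane subunits ran from -0.18 (Atp5mpl) to -0.091 (Atp5j2), and that of Atp5s was 0.095.

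The 3 genes for subunit c were also compared as parts of their total. As a share of the 3 genes' CPM per kb of transcript, Atp5g2 made up 32.9, 35.8, 35.6 and 36.2% in hypoxia and 26.1, 28.5, 29.7 and 29.4% in normoxia. Atp5g3 made up 61.9, 59.4, 59.3 and 59.0% in hypoxia and 68.6, 66.2, 65.2 and 65.9% in normoxia. Neither share overlapped between the groups. The share of Atp5g2 averaged 35.1 ± 1.52% (SD, n = 4) in hypoxia and 28.4 ± 1.60% in normoxia, and the difference of -6.68 percentage points reached the smallest p that 4 against 4 samples allow (two-sided exact permutation test, p = 0.0286). That of Atp5g3 differed by 6.58 points (p = 0.0286, the same exact test), and after adjustment over the 5 shares tested both stood at p = 0.0714 (exact permutation test). Over the 4 same-numbered pairs both gave p = 0.125 (exact sign-flip permutation test), the smallest that 4 pairs allow. Both are parts of 1 total, so they are not separate results.

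The share of Atp5g1 was 5.00% in hypoxia and 5.10% in normoxia (exact permutation p = 0.6). It depends on the transcript taken as the length of this gene, which is the longest coding one. In raw counts the shares were 25.3 and 25.7% for Atp5g1, 28.3 and 22.9% for Atp5g2, and 46.4 and 51.4% for Atp5g3. Cox6a2 made up 2.91 ± 0.40% of the subunit VIa transcripts in hypoxia and 2.32 ± 0.42% in normoxia (SD, n = 4, exact permutation p = 0.114), and Cox6b2 made up 6.35 ± 1.28% of subunit VIb in hypoxia and 5.39 ± 0.72% in normoxia (exact permutation p = 0.286). Cox7a1 and Cox8b were too scarce to test.

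Per kb of the longest coding transcript, mean levels over the 8 samples differed widely among the genes. Highest were Atp5b at 397 CPM per kb, Cox6a1 at 295, Cox8a at 264, Atp5e at 231 and Atp5g3 at 224. Lowest were Cox7a1 at 0.702, Atp5s at 3.85, Cox6a2 at 8.03 and Cox6b2 at 11.6. In complex III, Uqcrh stood first at 176 CPM per kb. The level of Atp5e per kb went from 276 in hypoxia to 186 in normoxia, and that of Atp5g2 from 141 to 88.2. Together the 45 genes held 0.482, 0.438, 0.503 and 0.524% of all counts in hypoxia replicates 1 to 4, and 0.482, 0.454, 0.456 and 0.445% in normoxia. Hypoxia replicate 2 had the lowest share of all 8 samples.

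The decrease was not even over the pairs. Within same-numbered samples the median difference of the 42 genes was -0.11 in pair 1, -0.012 in pair 2, -0.28 in pair 3 and -0.33 in pair 4. The numbers of genes lower in normoxia were 24, 22, 34 and 38 of 42. The 16 genes called lower were lower in 15, 15, 16 and 16 of 16, whereas of the 26 others 9, 7, 18 and 22 were. These 16 were picked by the test on the same samples, so their agreement over the pairs was largely set by that choice. In all 4 pairs, 18 of the 42 genes were lower and 2 (Sdha and Atp5f1) were higher. The same counts over all tested genes were not made, so whether these numbers are unusual was not tested. The median deviation of the 42 genes from their overall means was -0.080 in hypoxia replicate 2 and 0.095 to 0.20 in the other hypoxia samples. In normoxia it was 0.0072 in replicate 1 and -0.12 to -0.13 in the rest. Without hypoxia replicate 2, 21 genes were called lower, with Cox6a1, Cox6a2, Uqcrc1, Uqcrfs1 and Uqcrq added.

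**Figure D3:**
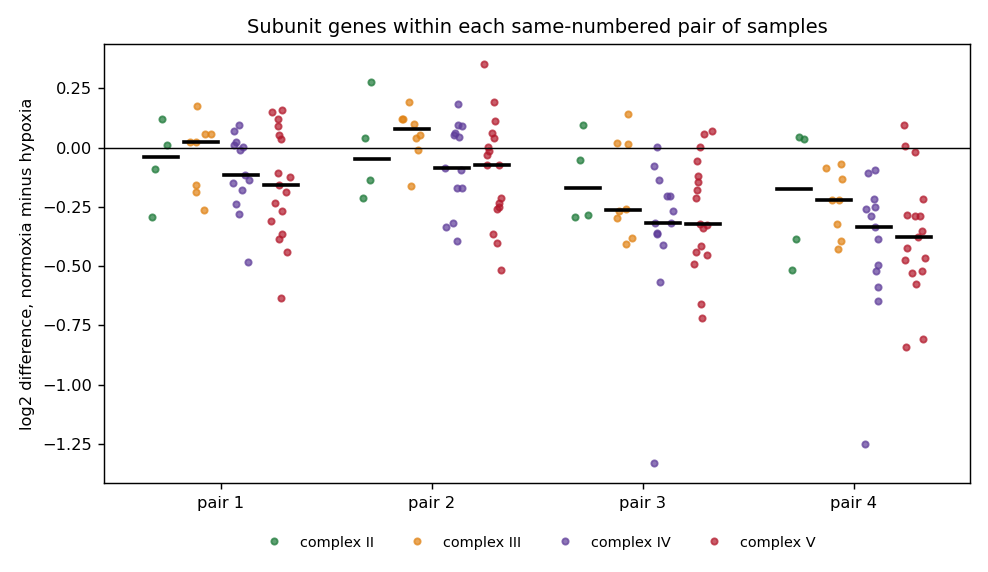
Log2 difference (normoxia minus hypoxia, vertical axis) of each of the 42 tested genes within the 4 same-numbered pairs of samples, coloured by complex, with black bars at the median of each complex. The medians of complexes IV and V lie below 0 in all 4 pairs, and that of complex III lies above 0 in pairs 1 and 2 (0.024 and 0.077).

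Of the 16 calls, 11 held in each of the 8 fits that left out 1 sample. The others were Sdhd, Uqcrh, Cox7c, Cox8a and Atp5g3. Without hypoxia replicate 3, hypoxia replicate 4 or normoxia replicate 3, all 5 were lost. Without normoxia replicate 2 or 4, all of them but Cox8a were lost, and without hypoxia replicate 1 only Cox7c and Atp5g3. Their changes stayed negative, with log2 values in those fits between -0.16 (Uqcrh without hypoxia replicate 4) and -0.27 (Cox7c without normoxia replicate 2), and limma-trend adjusted p from 0.0505 to 0.122. Across all 13 other settings and these 8 fits, 9 genes were called lower every time, namely Sdhc, Cox7a2l, Atp5g2, Atp5e, Atp5o, Atp5c1, Atp5h, Atp5g1 and Atp5a1.

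The genes examined have short transcripts, with a median of 781 bases against 3010 over all tested genes, and a median GC content of 50.3% against 50.0%. Over all tested genes the change correlated with GC content (Spearman's rho = -0.39 across genes, which share the same 8 libraries and are not independent). Over the 42 genes rho was -0.25. With transcript length, rho was 0.17 over all tested genes and 0.057 over the 42. Of all tested genes, 5.12% had transcripts shorter than the median of the 42. The parts of GC content and of length in the correction were not separated. A smooth trend in GC content and length was therefore removed from each sample, which also removes any true change that follows these properties. The median change of the 42 genes was then -0.095. With this correction and the block, 16 genes were called lower and 6 higher, against 21.4% and 21.8% of all genes.

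Of the 16 genes first called, 13 remained lower under correction and block, and 12 with the correction alone, where Atp5d was lost as well (-0.12, limma-trend adjusted p = 0.218, becoming 0.0261 with the block). Uqcrh (-0.083, limma-trend adjusted p = 0.215) and Atp5g3 (-0.10, 0.0712) were no longer called, and Cox8a turned to 0.086 (0.123). The 6 called higher were Uqcr10 (0.30), Sdhb (0.25), Uqcr11 (0.25), Atp5j (0.18), Atp5f1 (0.15) and Cox6a1 (0.12). The largest decreases under the correction were those of Atp5g1 (-0.46), Cox7a2l (-0.42), Sdhc (-0.39) and Cox7c (-0.38), while Atp5g2 stood at -0.32, less than its uncorrected change. The corrected value of Atp5g1 rests on the length and GC content of its longest coding transcript, of 4715 bases.

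**Figure D4:**
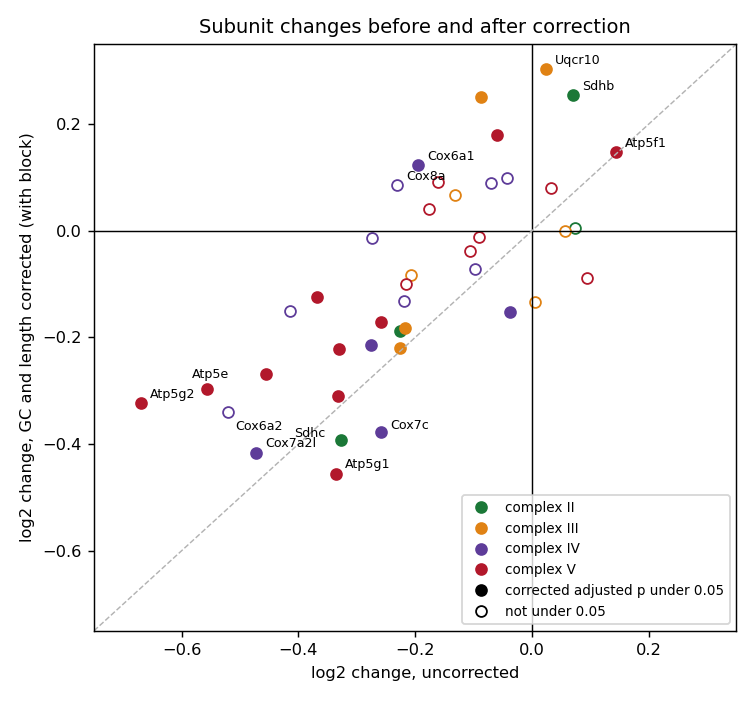
Log2 change (normoxia minus hypoxia) of the 42 tested genes without correction (horizontal) and after removal of the GC and length trend, fitted with the replicate block (vertical), coloured by complex and filled where the corrected adjusted p is under 0.05. The dashed line marks equal values. Most points lie above it, Sdhc, Cox7c and Atp5g1 are among those below it, and Cox8a and Cox6a1 move from below 0 to above 0.

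Neighbouring genes of the respiratory chain were compared in the same fits. Of 36 tested subunit genes of complex I, which feeds electrons from NADH into the chain, 19 were lower and 1 higher (Ndufs1, 0.53). Their median change was -0.22. With the block 22 were lower and 2 higher, and under correction and block 13 and 3. Over all tested genes 16.5% were lower and 18.0% higher. These shares were 22.7 and 23.3% with the block, and 21.4 and 21.8% under correction and block. Of 13 listed genes of complexes III to V and of cytochrome c that lie outside the rule, 9 were tested. Among these 9, 2 were lower and none higher. These numbers were 3 and 1 with the block, and 4 and 1 under correction and block. Values follow for Cox4i2, Cox4i1, Cyc1 and Cycs, which include the 2 genes lower in the fit without the block. The other tested genes are not named here. Cox4i2, the isoform of subunit IV known to be used at low oxygen, had 3.31, 3.05, 3.71 and 3.74 in hypoxia and 1.10, 0.84, 1.93 and 1.30 in normoxia. It separated completely, with a change of -2.16 ± 0.23 (SE) (limma-trend adjusted p = 9.85e-05). Its ubiquitous counterpart Cox4i1 changed by -0.43 ± 0.078 (SE) (limma-trend adjusted p = 0.00150). Cyc1, cytochrome c1 of complex III, stood at -0.20 ± 0.083 (SE) and Cycs, cytochrome c, at 0.37 ± 0.14 (SE), and neither was called (limma-trend adjusted p = 0.0879 and 0.0608). In the blocked fit, Cyc1 was called lower (0.0206) and Cycs higher (3.92e-05). Of the subunits encoded by mitochondrial DNA, mt-Co2, mt-Co3, mt-Atp6 and mt-Atp8 had 0 to 36 counts per sample and were not tested.

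Assembly factors, which build the complexes without being part of them, moved in both directions. For complex II, 1 of 4 rose (Sdhaf2, 0.35) and none fell. For complex III, Bcs1l, which inserts the Rieske protein, fell (-0.32), and Uqcc1 (0.38) and Ttc19 (0.47) rose, out of 6 genes. For complex IV, 4 of 23 tested genes fell (Surf1 -0.44, Cmc1 -0.40, Coa5 -0.39 and Cmc2 -0.39) and none was called higher in the fit without the block, where 16.5% of all genes were lower and 18.0% higher. For complex V, 1 of 4 rose (Atpaf1, 0.37). Of 10 tested regulators of respiratory genes, 3 rose, namely Gabpa (0.29) of the ETS family, Lrpprc (0.26), which stabilises mitochondrial mRNAs, and Yy1 (0.25), and the mitochondrial protease Lonp1 fell (-0.23). With the block, 5 complex IV factors were lower and 1 higher, 2 of complex III were lower and 2 higher, and 1 regulator was lower and 4 higher. With block and GC and length correction, complex IV had 5 factors lower and 3 higher and complex III 1 lower and 2 higher, Atpaf1 was higher, and the calls of Sdhaf2, Lonp1, Gabpa and Lrpprc were lost, with Esrra, Pprc1 and Yy1 the regulators called higher. Ppargc1a and Ppargc1b, coactivators of mitochondrial genes, had 1 to 9 and 0 to 6 counts per sample and were not tested.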

How the data were processed

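Total RNA of 8 samples was sequenced by the authors as single-end reads, processed with zUMIs 2.2.1, STAR 2.6.1a, samtools 1.9 and featureCounts of Rsubread 1.32.4 on mm10 with Ensembl GRCm38 release 91, and deposited as raw counts per gene. The settings for strand, introns and multiply mapped reads are not given in the sources used here, so genes with pseudogene copies or overlapping neighbours are uncertain. Symbols, positions, transcript lengths and GC content came from GENCODE M21 on the same assembly (longest coding transcript), and promoters from RefSeq GRCm38.p6. The members, the lists of other genes and the tests were chosen with earlier results of these data known.

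Genes were filtered with filterByExpr of edgeR 4.0.16 (minimum count 5), which kept 14369, scaled by TMM, expressed as log2 CPM with a prior count of 3, and compared between normoxia and hypoxia by limma-trend (limma 3.58.1, R 4.3.3), with Benjamini-Hochberg adjustment over all genes and a threshold of 0.05. The filter and the test follow the methods of the study, which do not name a normalization. The fit was repeated with the replicate number as a block. Same-numbered samples deviated together over all genes, with correlations of 0.47, 0.28, 0.25 and 0.17. Over the 42 members tested they did not do so in every pair (0.42, 0.28, -0.28 and -0.18). The study divided sorted cells between the oxygen levels. The trend in GC content and length was fitted by natural splines (5 degrees of freedom per property). Isoform shares were compared by two-sided exact permutation tests (scipy 1.17.1) for genes with at least 10 counts in every sample. Alternatives were the edgeR quasi-likelihood test, DESeq2 1.42.0, limma-voom, 4 normalizations, 2 filters, another prior count, the block and corrections, and each sample left out. P-values measure the spread between these samples, which may be technical in part.

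Named in full were the largest and the smallest changes and the highest level per kb in each complex, all isoforms, members whose call changed with the block, those nearest the threshold on each side, and those below the filter. Others are named to account for every member. The fits were first tested on simulated data with known changes. Depths set a floor of 3 counts, or 0.119 to 0.233 CPM, for counting error only.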

Additional observations from a re-analysis of the deposited data

Results flagged for a closer look

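Within groups of 4 samples, 98 sets of values were searched for a sample standing apart by Dixon's 95% criterion, and 10 were found. Chance flags about 1 in 20 such sets, or 4.9 of 98. Total counts of hypoxia replicate 1 were 25132141, against 12929564 to 13219647 in the other hypoxia samples. Hypoxia replicate 2 was low for 4 genes, at 6.49 log2 CPM for Uqcrq, 6.70 for Cox6b1, 6.86 for Atp5o and 6.31 for Atp5g1. Hypoxia replicate 1 stood apart for the shares of subunit c transcripts, with 32.9% for Atp5g2 and 61.9% for Atp5g3, both nearer to the normoxia samples. Normoxia replicate 1 was high for Uqcrq at 6.64 and for Atp5f1 at 7.22 log2 CPM, and normoxia replicate 3 was low for Cox6a2 at 1.73.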

How the results depend on the processing

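The median change of the 42 genes was negative in all settings run. With library totals alone, which moved the median of all genes from 0.0049 to 0.089, 10 members were called lower and 2 higher, with 1 in complex II, 0 in complex III and 1 in complex IV lower, when 11.0% of all genes were lower and 25.1% higher. No member was called higher by edgeR, DESeq2 or limma-voom, which called 18, 19 and 17 lower beside 16.4, 16.6 and 15.4% of all genes. Complex III had 2 genes lower with edgeR and with DESeq2. It had 3 with upper quartile factors, beside 18.5% of all genes lower. Without a filter it had 0 and complex II had 1, beside 8.54% of all genes lower. With the replicate block, 1 member was higher, and complexes III and IV had 3 and 7 lower, beside 22.7% of all genes lower and 23.3% higher. Without hypoxia replicate 1 the block again gave 3 and 7 lower, beside 20.1% of all genes, an alternative chosen after seeing the data. Among the 42 members the block changed no other call than those of the 6 genes named with it. With the GC and length correction, 13 members were lower and 4 higher, beside 14.0 and 14.9% of all genes, and the median was -0.095. With block and correction 16 were lower and 6 higher, beside 21.4 and 21.8% of all genes. Complex III then had 2 lower and the median was -0.095.

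Leaving out 1 sample at a time gave 11 to 21 members lower beside 12.5 to 17.6% of all genes, 1 to 2 in complex II, 0 to 4 in complex III, 2 to 6 in complex IV and 8 to 9 in complex V, with a median change of -0.24 to -0.19.

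Some changes took the other sign in some settings, among them that of Cox8a, which was called lower at -0.23, and that of Cox6a1 at -0.20. Uqcrc2 stood at -0.0065 with DESeq2, -0.0053 with its size factors, -0.024 with upper quartile factors, -0.13 with the correction with or without the block, and -0.013 with the block without hypoxia replicate 1. Uqcr10 was -0.0048 with upper quartile factors. With library totals Cox7b was 0.050, Cox6b1 0.046, Atp5j 0.028, Cox7a2 0.018 and Uqcr11 0.0015. With the correction, with or without the block, Cox6a1 was 0.12, Cox6b1 0.098, Atp5j 0.18, Cox7a2 0.089, Cox8a 0.086, Uqcrc1 0.066, Uqcr11 0.25, Atp5k 0.091, Atp5mpl 0.040, Atp5s -0.089 and Uqcrb -8.6e-04. With 1 sample left out, Sdhb ranged from -0.012 to 0.11, Uqcrc2 from -0.028 to 0.055, Uqcr10 from -0.028 to 0.058 and Atp5b from -0.018 to 0.071. The cause of these sign changes was not tested.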
